A study of Mus musculus with 4 samples.

Results

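Granulosa cells (GCs), the somatic cells that surround the oocyte, were examined here in 1 class defined by *Amh* and *Cited1*. Anti-Müllerian hormone, the product of *Amh*, is a TGF-beta family ligand that GCs of growing follicles secrete and that signals through its receptor Amhr2 and the Smad proteins. It is known as a brake on follicle recruitment and on the response to follicle-stimulating hormone (FSH), and its expression is known to fall in the mural GCs of large follicles, where *Inhba*, *Cyp19a1* and *Lhcgr* take over. Cited1, a transcriptional coregulator, is the other gene in the name.

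The data came from dissociated ovaries of 8-week-old female mice, profiled by droplet-based single-cell RNA sequencing of transcript 3′ ends in 4 libraries. The 2 control libraries came from Fosl2F/F mice (Fosl2flox/flox, no Cre). The 2 others came from Fosl2cKO mice (Cyp19a1-Cre; Fosl2flox/flox) of the same litter, so all animals carried both floxed *Fosl2* alleles. Cre was driven by the promoter of *Cyp19a1*, the aromatase gene, a driver that acts in GCs, and the study gives vaginal smears in estrus for its mice. The number of females per genotype in the study equals that of the libraries, but that each library held the ovaries of 1 mouse is not stated in the sources used here, and p-values measure the spread between these libraries only.

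The 1151 Amh Cited1 cells were chosen by the detection of marker genes among 47782 barcodes that had at least 500 genes, over 1000 UMIs (unique molecular identifiers, each standing for 1 captured RNA molecule) and under 10% mitochondrial UMIs. A barcode was selected on at least 4 detected genes of the 8 positive genes *Amh*, *Cited1*, *Alpk3*, *Slc38a3*, *Perp*, *Lnx1*, *Nnat* and *Ano4*. It also had to show fewer than 4 of 8 cumulus genes (*Gatm*, *Col18a1*, *Cdh12*, *Itga6*, *Pcsk6*, *Adamts17*, *Chst9*, *Kcnq1*), *Inhba* below 10 UMIs in 10000, and fewer than 2 genes from each of 2 sets, the cycling genes (*Top2a*, *Mki67*, *Ube2c*, *Prc1*, *Aurkb*) and the stromal genes (*Dcn*, *Col1a2*, *Lum*). Of 5014 barcodes with 4 or more positive genes, 2744 failed the cycling limit, 1402 the cumulus limit, 655 the *Inhba* limit and 596 the stromal limit, with overlaps. Everything these genes show in the cells is therefore a description of the choice, and so is every difference between the selected cells and other GCs. Comparisons between Fosl2F/F and Fosl2cKO were tested, since the condition itself was not used in the choice. Rule genes can differ between the conditions, though, and the capped *Inhba* had a log2 fold change of 1.11 in the cells. The rule may therefore select different cells in each condition. This limits the shares and the gene comparisons, and its part was not tested.

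The Fosl2F/F libraries gave 409 and 339 Amh Cited1 cells, and the libraries labelled Fosl2cKO gave 90 and 313. These cells held 7246931 and 2659111 UMIs in Fosl2F/F and 2083731 and 5877497 in Fosl2cKO. Fosl2F/F 2 stood apart by depth, with a median of 5685 UMIs per cell against 16190, 20590.5 and 17499 in Fosl2F/F 1, Fosl2cKO 1 and Fosl2cKO 2, and with 24320 of all 47782 barcodes. Pairs of libraries shared 12 to 49 barcode sequences, and no barcode sequence was an Amh Cited1 cell in 2 libraries. Scrublet scored 6, 48, 3 and 6 of the cells in the same order among the likely doublets, which were kept.

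GC identity was checked with 8 genes (*Inha*, *Fst*, *Fshr*, *Hsd17b1*, *Amhr2*, *Nr5a2*, *Esr2*, *Inhbb*), of which a GC barcode had to show 4, beside fewer than 2 stromal genes. Apart from 4, 31, 4 and 2 cells, the Amh Cited1 cells met this limit. Markers of other cell types were present as well. In CPM (UMIs of a gene per 1000000 UMIs of the class in that library), the summed levels ran from 4.55 to 57.5 for 4 immune markers, 13.8 to 28.8 for 4 endothelial markers, 22.6 to 65.7 for 4 theca markers, 51.7 to 163 for 3 luteal markers, 4.42 to 159 for 4 epithelial markers, 3.84 to 67.3 for 6 oocyte markers, 21.9 to 65.5 for 4 pericyte markers and 28.9 to 57.2 for 3 further stromal markers. The theca marker *Insl3*, the epithelial marker *Krt7* and the oocyte markers *Zp2*, *Bmp15* and *Oosp1* were at 0 in at least 1 library. These sums were above those of other GCs for epithelial markers in Fosl2F/F 2 (88.4 against 73.7) and Fosl2cKO 1 (159 against 90.6) and for theca markers in Fosl2cKO 1 (65.7 against 21.6). The same held for immune markers in Fosl2F/F 2 (57.5 against 40.8), oocyte markers in Fosl2F/F 2 (67.3 against 65.1) and pericyte markers in Fosl2F/F 1 (65.5 against 63.0), and all other sums were below those of other GCs. Without the 37, 73, 16 and 35 cells that showed 2 or more markers of another cell type (immune, endothelial, theca, luteal, epithelial, oocyte or pericyte), 1 gene was called between the conditions, as with them, and the log2 ratio of the share of Amh Cited1 cells was 0.27.

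The label places these cells in growing follicles. Follicle stage was not measured, and the stage-related genes did not settle it. *Kctd14* and *Wt1*, genes of immature GCs, and *Foxl2*, a general gene of GC identity, were lower in them than in cumulus-like GCs in 4 of 4 libraries. Against mural GCs, *Kctd14* and *Wt1* were higher in 4 of 4 libraries (median log2 ratios 1.52 and 2.20) and *Foxl2* in 1 of 4 (-0.48). They are called Amh Cited1 cells after 2 genes of the rule, not by follicle stage, and of these 2 genes *Cited1* was detected in the minority of the cells.

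The positive genes were carried unevenly. *Amh* (chr10:80805243-80807648, GRCm38, plus strand) was detected in 78.7% and 92.6% of the cells in Fosl2F/F and in 84.4% and 80.5% in Fosl2cKO. Immune barcodes, which should lack it, showed it in 3.88% to 5.48%, at median depths of 2562 to 6133 UMIs. *Cited1* (chrX:102247381-102252181, minus strand) was detected in 49.1%, 31.6%, 31.1% and 41.2% of the cells, against 1.28% to 1.93% of immune barcodes. Thus most of the selected cells had *Amh*, but over 50% of them in every library had no *Cited1* UMI. *Slc38a3*, which encodes a glutamine transporter, was detected in 77.3% and 74.4% of the cells of Fosl2F/F 1 and Fosl2cKO 2, but in 33.9% and 21.1% of those of Fosl2F/F 2 and Fosl2cKO 1. *Ano4*, a calcium-activated membrane protein of the anoctamin family, was present in 94.4% to 99.4%.

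The level of *Slc38a3* followed the same split. It stood at 101 and 51.1 CPM in Fosl2F/F and at 12 and 91.0 in Fosl2cKO. *Amh* itself stood at 301, 418, 312 and 296 CPM in the same order. The conditions overlapped on this scale, but not after TMM scaling, which gave 331 and 408 in Fosl2F/F and 296 and 295 in Fosl2cKO. *Cited1* stood at 77.4 and 75.2 in Fosl2F/F and at 18.7 and 45.4 in Fosl2cKO, which do not overlap. *Inhba*, which encodes the activin A subunit and was capped by the rule, stood at 64.6 and 76.0 in Fosl2F/F and at 167 and 155 in Fosl2cKO. Since the rule used these genes, their values carry no test, and 31.2% of all genes tested had conditions that did not overlap after TMM scaling.

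Of the 1151 cells, 505 had exactly 4 positive genes, 340 had 5, 187 had 6, 93 had 7 and 26 had all 8. The cells of Fosl2F/F 2 and Fosl2cKO 1 lay close to the limit, with 67.8% and 56.7% at exactly 4 genes, against 27.6% and 35.5% in Fosl2F/F 1 and Fosl2cKO 2. GC barcodes just outside it, with 3 positive genes and all other conditions met, numbered 154, 451, 73 and 104 in the order of the libraries. They held *Amh* at 48.1, 246, 97.1 and 79.4 CPM, against 142, 414, 257 and 149 in cells just inside at 4 genes.

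The cells were not uniform across that limit in genes the rule did not use. From 4 positive genes to 6 or more, *Inha*, the inhibin alpha subunit, went from 2191 to 2695 CPM in Fosl2F/F 1, from 2650.3 to 3395 in Fosl2F/F 2, from 2915 to 4069 in Fosl2cKO 1 and from 2862 to 3602 in Fosl2cKO 2. *Ghr*, the growth hormone receptor, went from 978 to 639 in Fosl2F/F 1, 112 to 108 in Fosl2F/F 2, 138 to 5.22 in Fosl2cKO 1 and 578 to 359 in Fosl2cKO 2. So the cells with more of the positive genes had more *Inha* in each library and less *Ghr* in 3 of 4. In Fosl2F/F 2 *Ghr* showed no such decrease, with 112 at 4 genes, 61.3 at 5 and 108 at 6 or more. The top bin held 168, 25, 9 and 104 cells. At 5 genes, with 30 cells, Fosl2cKO 1 had 3241 for *Inha* and 127 for *Ghr*. Deeper barcodes detect more genes: median depth went from 13541 to 18127, 5334.5 to 9267, 20324 to 20345 and 16096 to 20078 UMIs. The part of depth in this gradient was not tested.

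**Figure D1:**
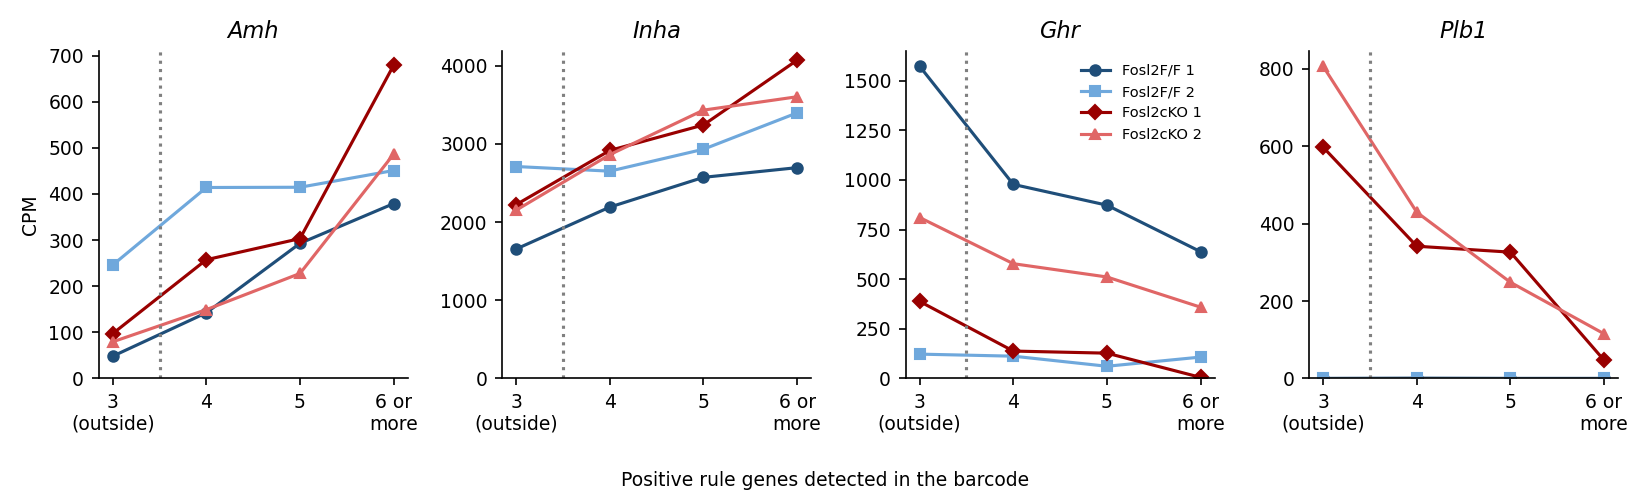
Levels of 4 genes in GC barcodes by the number of positive rule genes detected, 1 line per library, in CPM; the dotted line marks the limit of the rule and points left of it are barcodes just outside. *Inha* is higher at 6 or more genes than at 4 in each library, *Ghr* is lower in all but Fosl2F/F 2, where it shows no steady decrease, and *Plb1*, near 0 in Fosl2F/F, is lower at 6 or more genes in both Fosl2cKO libraries.

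*Ghr* was detected in 81.2% and 73.8% of the cells of Fosl2F/F 1 and Fosl2cKO 2, and in 20.9% and 31.1% of those of Fosl2F/F 2 and Fosl2cKO 1. With every barcode thinned to 3000 UMIs, these shares were 58.0%, 46.3%, 12.1% and 18.2%, and 6.65%, 6.99%, 19.1% and 6.09% for immune barcodes of the same libraries, so that *Ghr* in Fosl2F/F 2 was at or under the background. Cells without a *Ghr* UMI held *Amh* at 507, 552, 460 and 368 CPM in library order, and cells with one at 259, 200, 108 and 273. In Fosl2F/F 2 this split is not one by *Ghr* expression. There the cells with a *Ghr* UMI were deeper (median 9310 against 5304.5 UMIs) and held more *Cyp11a1* (3220 against 623 CPM) and more *Lhcgr* (816 against 144 CPM). Much of the *Cyp11a1* of that library lay in 6 of its 339 cells, and much of the *Lhcgr* in 4. These 2 contrasts may therefore reflect few barcodes, and which side of the split held them was not tested. In the other 3 libraries *Amh*, which the rule used, was higher in the cells without *Ghr*, at median depths of 14803, 19725 and 17172.5 UMIs against 16326.5, 27969 and 17520 in cells with it. *Pid1*, an adaptor gene, ran with *Ghr*: 595, 75.2, 203 and 302 CPM in cells with *Ghr* against 106, 35.8, 14.1 and 120.3 in cells without.

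Next, the cells were set beside the other GCs, first by role in AMH and activin signalling. *Inha* stood at 2545, 2805, 3137 and 3301 CPM in the Amh Cited1 cells, at 800.4 to 1159 in cumulus-like GCs (4 or more cumulus genes, n = 1436) and at 6893 to 12040.3 in mural GCs (*Inhba* of 10 or more in 10000 and *Lhcgr* detected, n = 2230). The cells thus lay between these 2 classes in every library. *Fst*, the activin-binding follistatin, lay between them as well, at 173 to 297 against 53.0 to 77.1 and 389 to 538. *Inhbb*, the activin B subunit, stood at 33.9, 150.4, 361 and 199, below the 581 to 1348 of mural GCs in 4 of 4 libraries and above the cumulus-like value in 3 of 4. The receptor *Amhr2* varied less, at 145, 122, 145 and 119 in the cells, 189 to 288 in cumulus-like GCs and 78.2 to 138 in mural GCs. Of the inhibitory Smads, *Smad6* and *Smad7* were above the other GCs in 4 of 4 libraries, with median log2 ratios of 0.40 (SD 0.25 over the 4 libraries) and 0.21 (SD 0.08). Of 22 genes of this signalling list at 20 CPM or more, 3 were higher and 10 lower than in the other GCs in 4 of 4 libraries, against 13.3% and 27% of all 7380 genes at that level. *Grem1*, a secreted BMP antagonist, had the lowest ratio of the list, at 0.48 to 4 CPM in the cells and 5.75 to 143 in other GCs.

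**Figure D2:**
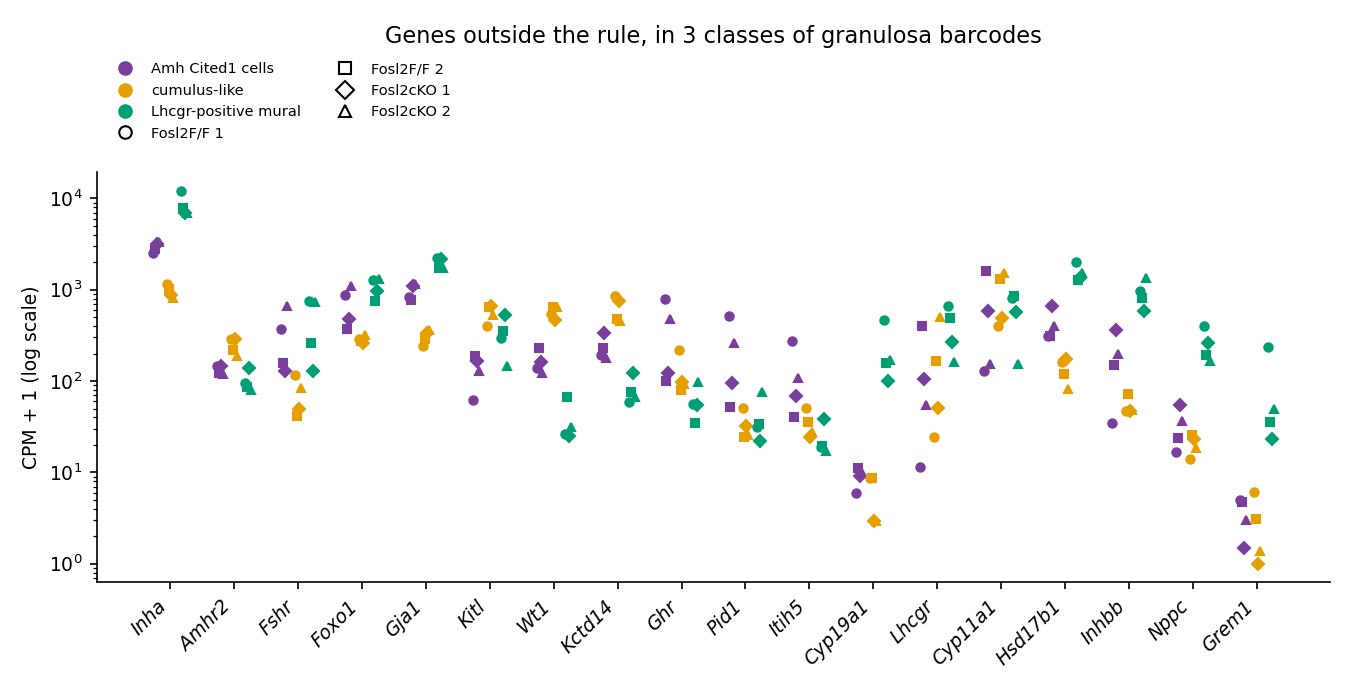
Levels of 18 genes not used in the rule, in CPM plus 1 on a log scale, in Amh Cited1 cells, cumulus-like GCs and *Lhcgr*-positive mural GCs; each point is 1 library and marker shapes name the library. *Inha*, *Gja1* and *Hsd17b1* in Amh Cited1 cells lie between the other classes in all 4 libraries, and *Cyp19a1* and *Grem1* lie far below the mural GCs (*Lhcgr* was used to define those, and *Inha*, *Amhr2*, *Fshr*, *Hsd17b1* and *Inhbb* are among the GC identity genes).

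The gonadotropin response and steroid synthesis genes were mostly lower in the Amh Cited1 cells. Of 16 such genes at 20 CPM or more, 11 were below the other GCs in 4 of 4 libraries and 1, the estrogen receptor *Esr2*, was above them (median log2 ratio 0.60, SD 0.33), where 27% of all genes were lower and 13.3% higher. *Cyp19a1*, which makes estrogen and drives the Cre transgene, stood at 4.97 and 10.2 CPM in Fosl2F/F and at 8.16 and 8.85 in Fosl2cKO, against 217, 45.5, 28.9 and 41.2 in other GCs. At 3000 UMIs per barcode it was detected in 1.97%, 2.22%, 1.14% and 1.28% of the cells, in 0.32% to 2.11% of immune barcodes and in 6.42% to 33.3% of other GCs. The share in the cells was thus below that of other GCs in 4 of 4 libraries. It rested on 8 of 407, 7 of 315, 1 of 88 and 4 of 313 cells, against 7 of 331, 4 of 566, 2 of 624 and 3 of 429 immune barcodes, and no difference from the immune background is read from so few. *Hsd17b1*, which converts estrone to estradiol, stood at 312, 310.3, 668 and 400.2 in the cells and at 622 to 1329.7 in other GCs, lower in 4 of 4 libraries.

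*Fshr*, the FSH receptor, varied widely between libraries, at 373 and 158 CPM in Fosl2F/F and 129 and 659.8 in Fosl2cKO, and at 525, 175, 113 and 451 in other GCs. *Foxo1*, a forkhead factor of growing follicles, stood at 880.1, 369, 471 and 1087. For both genes Fosl2F/F 1 and Fosl2cKO 2 were high and the other two libraries low, so that this split crossed the conditions. The cholesterol side-chain cleavage enzyme gene *Cyp11a1* ran against it, at 129, 1609.9, 591 and 153, as did *Star*, the mitochondrial cholesterol carrier, at 22.8, 209, 52.3 and 9.36. A few barcodes carried much of the luteinization-related transcripts: 50% of the *Cyp11a1* UMIs lay in 2 of 409, 6 of 339, 1 of 90 and 2 of 313 cells, and 50% of the *Lhcgr* UMIs in 3, 4, 1 and 2 cells. *Amh*, by comparison, needed 56, 67, 20 and 44 cells to reach 50% of its UMIs. Sums for *Cyp11a1* and *Lhcgr*, the luteinizing hormone receptor, therefore describe few barcodes of the class.

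Among genes outside the rule, those furthest above the other GCs were *Pid1*, *Ntng1*, *Itih5*, *Gm42303*, *Ptgis*, *E330023G01Rik*, *Col9a2*, *Zfp385b*, *Prss23*, *Kcnq5*, *Fkbp11* and *Nipal1*, the top 12 by median log2 ratio of 698 that were higher in 4 of 4 libraries. *Pid1* stood at 514, 50.8, 93.1 and 259 CPM, against 112, 49.4, 36.1 and 117 in other GCs (median log2 ratio 1.24, SD 0.88). *Itih5*, a hyaluronan-binding matrix protein gene, stood at 271, 39.1, 68.1 and 107, against 65.6, 35.5, 35.9 and 38.9. Both were clearly higher in 3 libraries and nearly level in Fosl2F/F 2. GC barcodes just outside the rule, with 3 positive genes, held more of both than the cells in 4 of 4 libraries. They had *Pid1* at 642, 76.6, 114 and 334 CPM and *Itih5* at 457, 55.5, 173 and 125. Neither gene is thus particular to the class. *Zfp385b*, a zinc finger gene, had the smallest SD of these 12 genes, at 845, 456, 316 and 1161 against 401, 279, 189 and 612 (median log2 ratio 0.83, SD 0.17). *Kcnq5*, a voltage-gated potassium channel gene, stood at 1439.9, 732, 1023 and 2049 against 613, 495, 632 and 1090.4. *Ptgis*, the prostacyclin synthase gene, was at 194, 69.6, 117 and 103 against 67.0, 46.1, 55.2 and 61.4.

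*Ghr* reached 782, 98.2, 122 and 478 CPM in the cells and 215, 82.1, 99.6 and 201 in other GCs (median log2 ratio 0.77, SD 0.78). The Fosl2F/F 2 value of the cells was at or under the immune background and does not measure expression. In GC barcodes just outside the rule, with 3 positive genes, *Ghr* was higher than in the cells, at 1573, 122, 388 and 811 CPM. The study takes *Ghr* as a marker of atretic GCs, and no class of atretic GCs was compared here. *Ghr*, *Itih5* and *Pik3ip1* stand in the list of atresia and apoptosis genes. Of the 10 at 20 CPM or more, 2 were higher and 2 lower than in the other GCs in 4 of 4 libraries. The shares of all genes were 13.3% and 27%. The 2 higher ones were *Itih5* and *Ghr*, the latter with the limit just given for Fosl2F/F 2, and the 2 lower ones *Bcl2* and *Mcl1*. Both *Itih5* and *Ghr* were higher in the barcodes just outside the rule than in the cells in 4 of 4 libraries.

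**Figure D3:**
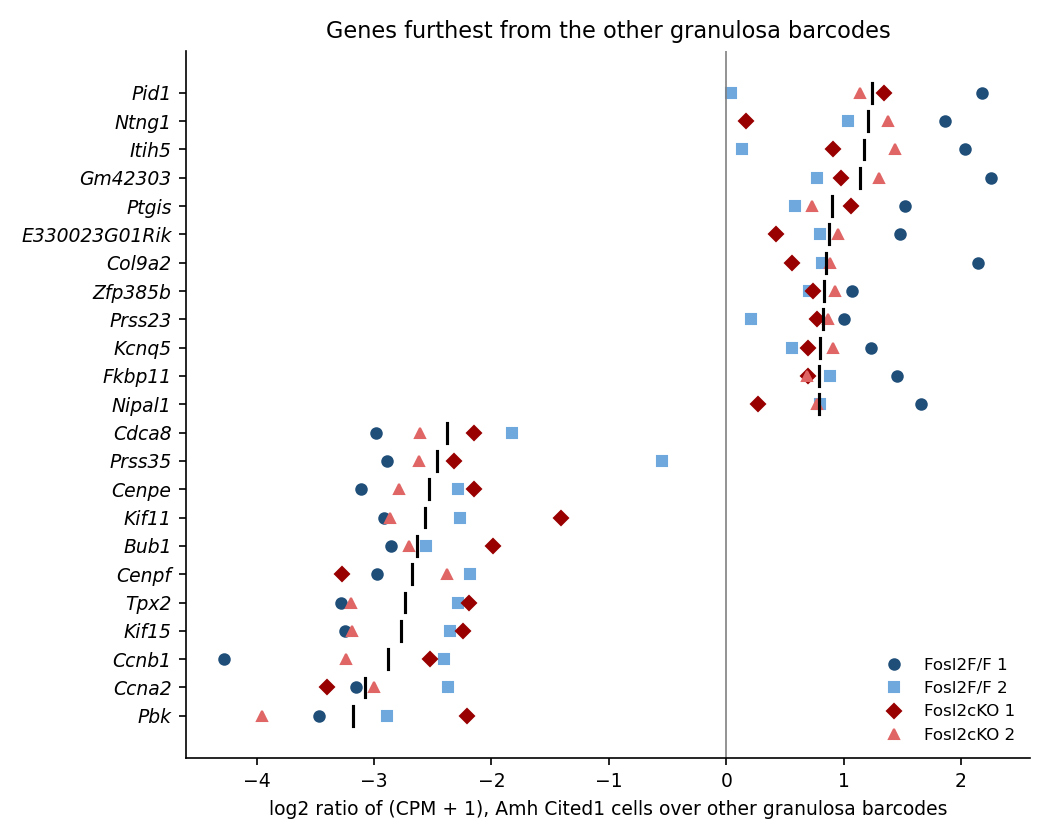
Log2 ratio of (CPM + 1) in Amh Cited1 cells over other GCs for the 12 genes furthest up and the 11 furthest down, all outside the rule; each point is 1 library and the black tick is the median of 4. Most genes at the bottom are mitotic genes, which the cycling limit of the rule removes, and *Pid1* runs from nearly 0 in Fosl2F/F 2 to over 2 in Fosl2F/F 1.

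Of the 11 genes furthest below the other GCs, 10 (*Pbk*, *Ccna2*, *Ccnb1*, *Kif15*, *Tpx2*, *Cenpf*, *Bub1*, *Kif11*, *Cenpe* and *Cdca8*) act in mitosis, and the rule had removed cycling barcodes. *Pbk*, a mitotic kinase gene, was at 6.07, 6.02, 12 and 2.89 CPM against 50.9 to 77.1. The remaining gene was the protease-like *Prss35*, at 10.1, 82.0, 54.2 and 15.5 against 81.1 to 274. Of the S phase genes, which the rule did not use, 0 of 14 were higher and 4 of 14 lower in 4 of 4 libraries, where 27% of all genes were lower. The helicase subunit gene *Mcm6* had a median log2 ratio of 0.25 with 3 of 4 libraries higher and the nucleotide reductase subunit gene *Rrm2* of -1.74.

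Against cumulus-like GCs, the Amh Cited1 cells had more *Slc38a5*, an amino acid transporter gene (193, 63.2, 104 and 156 CPM against 2.82 to 9.70), and more *Nap1l5* and *Car14*. They had less *Calb1*, the calcium buffer calbindin (2.21 to 12.8 against 32.8 to 88.1), less *Wnt6*, a Wnt ligand gene, and less *Igf2bp2*, an RNA-binding protein gene. Against mural GCs they had more *Slc18a2*, the vesicular monoamine transporter (396, 373, 281 and 224 against 17.1 to 54.0), more *Shroom3*, which shapes epithelial cells, and more *Wt1*. They had less *Gabrb2*, a GABA receptor subunit gene (1.92 to 2.63 against 36.6 to 171), and less *Nppc*, the C-type natriuretic peptide that holds oocyte meiosis (15.7 to 53.3 against 164 to 398). Kit ligand, *Kitl*, which GCs present to the oocyte, was at 61.7 to 186 and lower than in both classes in 4 of 4 libraries, and the gap junction gene *Gja1*, at 772 to 1146, lay between them.

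The other lists except granulosa identity gave 0 genes higher than in the other GCs in 4 of 4 libraries, where 13.3% of all genes were higher. Lower in 4 of 4 were 5 of 7 basement membrane genes (type IV collagen *Col4a1*: 20.6, 47.0, 26.4 and 18.7 CPM against 21.5, 98.0, 78.1 and 51.8), 5 of 11 genes of Foxo factors and growth arrest (the cell-cycle inhibitor *Cdkn1a*: 11.9 to 19.9 against 29.2 to 51.3), 5 of 11 of oocyte and neighbour contact, 5 of 16 of cholesterol synthesis, 4 of 14 of glycolysis, 2 of 8 of AP-1 and 2 of 9 of inflammation and the senescence-associated secretory phenotype (SASP). The granulosa identity list had 1 of 15 higher, *Esr2*, and 8 of 15 lower. The share of all genes lower in 4 of 4 libraries was 27%.

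How many of the GCs were Amh Cited1 cells was compared first between conditions. They made up 8.09% (exact 95% binomial interval 7.35 to 8.87) and 4.81% (4.32 to 5.33) of GC barcodes in Fosl2F/F, and 3.65% (2.94 to 4.47) and 12.1% (10.9 to 13.4) in Fosl2cKO. The intervals cover counting error only. The highest and the lowest share both came from Fosl2cKO, so the conditions overlapped. The means were 6.45% ± 2.32 (SD, n = 2) and 7.88% ± 5.98 (SD, n = 2), and the exact two-sided permutation test gave p = 1, where the smallest p that 2 against 2 libraries allow is 0.3333. The log2 ratio of the conditions in barcode numbers was 0.29, and the quasi-likelihood test of edgeR did not pass either. After thinning to 3000 UMIs, which evens out depth, the whole rule was applied again. The shares were then 3.88%, 3.29%, 1.32% and 5.85%, and the log2 ratio was -0.00031. Barcodes under that depth were left out. The limits on cumulus, cycling and stromal genes are easier to pass with fewer UMIs, so the thinned class does not hold the same cells. Libraries were thus further apart within Fosl2cKO than the conditions were from each other.

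**Figure D4:**
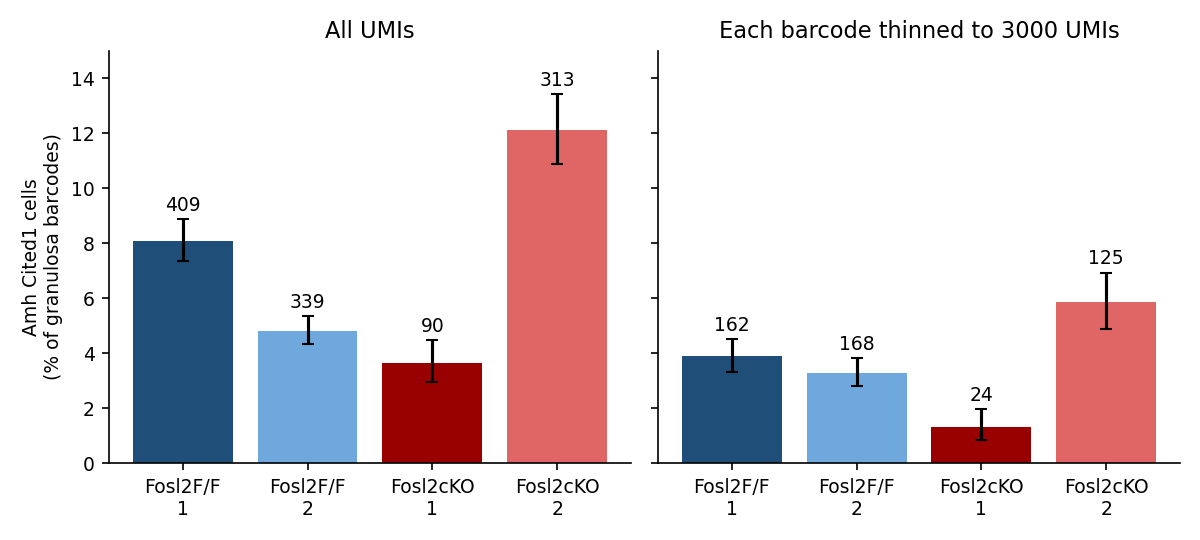
Amh Cited1 cells as a percent of GC barcodes in each library, with all UMIs (left) and with each barcode thinned to 3000 UMIs (right); error bars are exact 95% binomial intervals and the figures over the bars are numbers of cells. Fosl2cKO 2 has the highest and Fosl2cKO 1 the lowest share in both panels, so the conditions overlap.

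The targeted gene came first in the comparison of expression. *Fosl2* (chr5:32135801-32157842, plus strand), an AP-1 subunit, stood at 144 and 179 CPM in Fosl2F/F and at 176 and 136 in Fosl2cKO. The conditions overlapped, and the difference was a log2 fold change of -0.14 (SE 0.20, adjusted p = 0.999 by the quasi-likelihood test of edgeR). In other GCs the values were 168, 191, 181 and 144. The LoxP sites flank exons 2 and 4. Counting at transcript 3′ ends sees the deletion only where the deleted part holds the counted end, and whether the downstream site lies before or beyond that end is not stated in the sources used here. Also, fewer recombined cells and less RNA per cell cannot be told apart in a sum. By immunoblot, the study reports loss of Fosl2 protein in GCs of Fosl2cKO mice, which is a measure of protein and not of RNA.

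*Plb1*, a phospholipase gene, did separate the conditions. It had 1 and 0 UMIs in the Amh Cited1 cells of Fosl2F/F and 644 and 1534 in those of Fosl2cKO, which is 0.138 and 0 against 309 and 261 CPM. In Fosl2cKO 50% of its UMIs lay in 6 of 90 and 14 of 313 cells, fewer than the 20 and 44 cells for *Amh*. Every Fosl2cKO cell sum was far above both Fosl2F/F sums. The ratio of pooled levels was 2710.05, with an exact 95% counting interval of 486 to 107090 that rests on the 1 UMI in Fosl2F/F, and the adjusted p of edgeR was 0.00312. A UMI was seen in 58 of 90 cells (64.4%) and 214 of 313 cells (68.4%) of Fosl2cKO, and in 1 of 409 (0.244%) and 0 of 339 of Fosl2F/F.

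Immune barcodes of Fosl2cKO gave the background: 9.17% and 12.4% had a *Plb1* UMI, at 44.6 and 50.9 CPM. At 3000 UMIs per barcode the shares were 34.1% and 32.9% in the Amh Cited1 cells, 44.4% and 38.3% in other GCs and 4.01% and 6.06% in immune barcodes. The cells were thus above the immune background in both Fosl2cKO libraries. In other GCs *Plb1* reached 629 and 592 CPM. The condition effect in the cells against that in other GCs differed by -0.95 on the log2 scale (SE 1.03, adjusted p = 0.996 by the interaction test of edgeR), a fitted value that rests on single UMIs in Fosl2F/F and ran from -1.41 to 3.77 over the alternatives, passing in none. Within the class, *Plb1* went from 342 at 4 positive genes to 47.0 at 6 or more in Fosl2cKO 1, where the top bin is 9 cells, and from 429 to 115 in Fosl2cKO 2.

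*Plb1* (chr5:32232708-32366520, GENCODE) lies 74865 bases downstream of *Fosl2* on the same strand, with only the small RNA gene *Gm26335* and the pseudogene *Gm9555* between them. Its first RefSeq promoter window, 250 bases before to 50 after the RefSeq start, lies at chr5:32238834-32239133 (GRCm38.p6, plus strand), inside the GENCODE gene. It is shown because *Plb1* separated the conditions. Its capitals mark a match to TGANTCA, a pattern that reads the same on both strands. TGANTCA is looser than the AP-1 motif, which has G or C at the open position N. The match starts at base 51 of the window and has G there.
Plb1: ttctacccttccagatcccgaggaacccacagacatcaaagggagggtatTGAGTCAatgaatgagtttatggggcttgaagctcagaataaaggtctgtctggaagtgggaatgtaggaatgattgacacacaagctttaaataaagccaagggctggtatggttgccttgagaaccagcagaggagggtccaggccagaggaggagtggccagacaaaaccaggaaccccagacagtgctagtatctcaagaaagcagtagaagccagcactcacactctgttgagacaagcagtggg
The looser pattern TGANTCA stands in 7.81% of all 32851 promoter windows, and the share for the AP-1 motif alone was not counted. The other *Plb1* window and that of *Fosl2* hold no match. The match is a description of letters, and binding was not measured in these libraries.

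**Figure D5:**
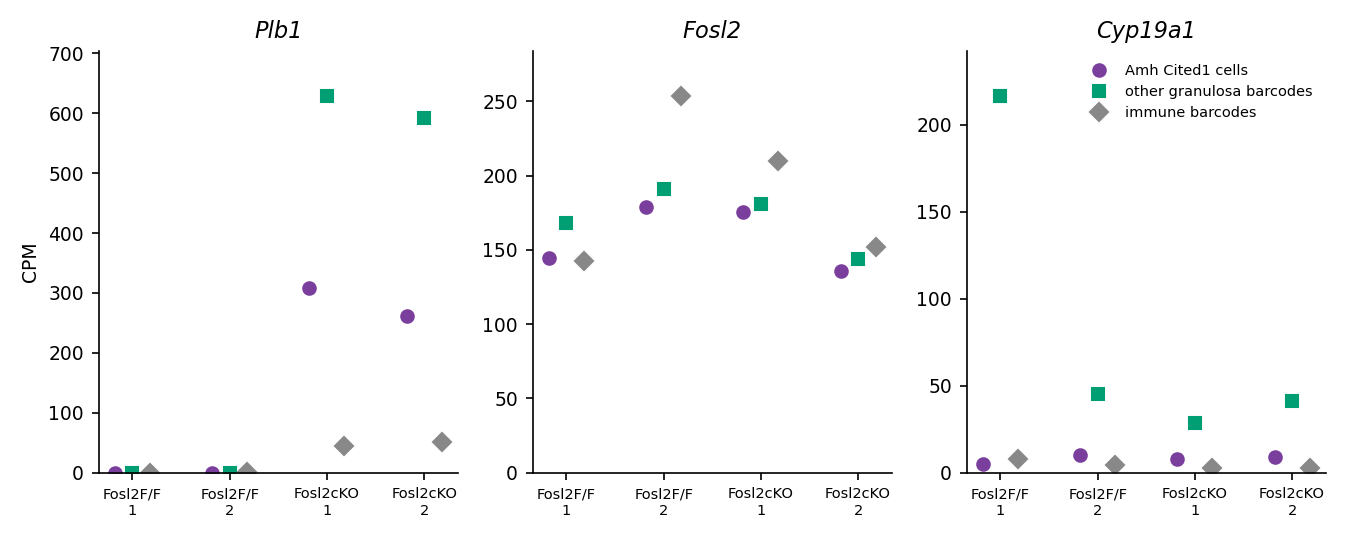
Levels of *Plb1*, *Fosl2* and *Cyp19a1* in CPM in Amh Cited1 cells, other GCs and immune barcodes, 1 point per library. *Plb1* in Amh Cited1 cells stands at 309 and 261 in Fosl2cKO and at 0.138 and 0 in Fosl2F/F, *Fosl2* overlaps between conditions, and *Cyp19a1* in Amh Cited1 cells is at most 10.2, against 28.9 or more in other GCs.

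*Plb1* was the 1 gene called of 12162 tested in the Amh Cited1 cells (0.00822%), with the limits set at 0.1 for the adjusted p and at 0.25 for the size of the log2 fold change, and 455 genes had an unadjusted p under 0.05. The calls depend on the tool: DESeq2 called 16 genes, 14 up and 2 down, and among them *Htra1* (adjusted p = 0.000315), *Anp32b* (0.00838), *Grasp* (0.0224), *Pgp* (0.0510) and *Ckb* (0.0861). The other genes outside the rule with the smallest p at 20 CPM or more, named although they did not pass, were *Grasp*, *Htra1*, *Anp32b* and *Pgp* on the higher side and *Acta2*, *Ckb*, *Grip1*, *Tub* and *Gm10076* on the lower, all at an adjusted p of 0.999 by edgeR. *Htra1*, a secreted serine protease gene, stood at 119.6 and 189.9 CPM in Fosl2F/F and 473 and 505 in Fosl2cKO (log2 fold change 1.59, SE 0.25), and other GCs had 169 and 196 against 431 and 510.1. *Anp32b*, a histone chaperone gene, had 133 and 166 against 348 and 405, and other GCs 136 and 155 against 325 and 420.1. Both classes come from the same libraries, and both had higher values in Fosl2cKO for these genes.

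*Acta2*, smooth muscle actin, stood at 48.2 and 40.6 in Fosl2F/F and 18.7 and 18.2 in Fosl2cKO (log2 fold change -1.37, SE 0.24). In other GCs the log2 fold change of *Acta2* was -1.06. It is also 1 of the 4 pericyte markers, whose sum stood at 65.5 and 54.5 against 23.0 and 21.9 CPM. *Acta2* made up most of that sum, which is therefore no separate evidence. Without the cells that showed 2 or more markers of another cell type, *Acta2* itself counting as one, the log2 fold change was -0.85 (adjusted p = 0.988 by edgeR). *Ckb*, brain-type creatine kinase, had 46.5 and 44.8 against 20.6 and 12.1 (log2 fold change -1.62, SE 0.30). *Grip1*, a scaffold protein gene, had 111 and 135 against 78.7 and 73.7, and *Tub* 22.9 and 38.7 against 9.12 and 13.3. The conditions did not overlap in these genes, nor in 31.2% of all genes.

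None of the 12 gene lists had a member that passed between the conditions by edgeR or by DESeq2 (0 in all lists). Their median log2 fold changes stood beside -0.01 over all 12162 genes. They were 0.19 for granulosa identity (15 tested), 0.14 for AMH, activin, BMP and TGF-beta signalling (27), 0.07 for gonadotropin response and steroid synthesis (16), -0.08 for oocyte and neighbour contact (15), 0.22 for cholesterol synthesis (17) and 0.19 for glycolysis (15). For the rest they were 0.09 for Foxo factors and growth arrest (11), 0.18 for AP-1 (10), -0.30 for basement membrane (11), 0.17 for the S phase (18), -0.20 for atresia and apoptosis (12) and 0.68 for inflammation and SASP (10). An unadjusted p under 0.05 was reached by 0 to 2 members a list, 7 in all, where 3.74% of all genes reached it. *Smad7*, the inhibitory Smad, was one, at 54.5 and 53.8 CPM against 99.8 and 142, and *Nppc* another, at 15.7 and 22.9 against 53.3 and 35.4. The log2 fold change of *Smad7* was 1.08 in the cells and 1.06 in other GCs, and that of *Nppc* was 1.11 and -0.99. Neither gene passed in the interaction test of edgeR.

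Of the other AP-1 genes, *Fos*, of the same family as *Fosl2*, stood at 2137, 1909, 2231 and 2044 CPM, and *Jun*, whose family encodes the dimer partners of Fosl2, at 1283, 1467, 1509 and 1904. *Jund* stood at 191 and 239.6 in Fosl2F/F and at 326 and 1235 in Fosl2cKO, where Fosl2cKO 2 alone was high, and the same library was high in other GCs with 1348 against 225, 249 and 348.

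Whether the condition acted differently in the Amh Cited1 cells than in other GCs was asked with the interaction term of edgeR. Of 17458 genes, 0 passed (0%), and 728 had an unadjusted p under 0.05, with no other tool run. *Grip1* had a difference of -0.75 (SE 0.18, adjusted p = 0.990) and *Tub* of -1.05 (SE 0.28, adjusted p = 0.990). The count was not stable: with 5 of 8 positive genes required it was 140 of 17097 genes, and it also rose without either Fosl2F/F library.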

How the data were processed

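Per the labels and methods, ovaries of 8-week-old mice were profiled with 10x Chromium 3′ v3 kits. The authors aligned reads to GRCm38 with CellRanger and describe CellBender for background removal. The deposited matrices hold whole-number UMI counts per gene and barcode without normalization. Their header names a later CellRanger than the methods, and the sources used here do not state whether the background correction is in these counts. Submitters' processing notes name Seurat 4.1.0.

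The Amh Cited1 cells and all gene lists were chosen with earlier results of these data known. Barcodes were filtered and selected as described above, and UMIs were summed per class and library. Levels (CPM) are UMIs per 1000000 UMIs of the class sum, and ratios use a pseudocount of 1. Conditions were compared on the sums of 2 against 2 libraries with edgeR 4.0.16 (filterByExpr, TMM, quasi-likelihood F test, Benjamini-Hochberg over all genes) in R 4.3.3. The limits for a call were 0.1 for the adjusted p and 0.25 for the size of the log2 fold change. DESeq2 1.42.0 was an alternative, Scrublet in scanpy 1.11.5 scored doublets (0.8% of a library per 1000 barcodes), and thinning used 3000 UMIs. Named genes are the rule genes, *Fosl2*, *Cyp19a1*, *Plb1*, *Inhba*, *Ghr* and *Lhcgr*, up to 6 per list, the 5 smallest p each way among genes outside the rule and the 12 largest median ratios each way (50 CPM or more, same sign in 4 of 4 libraries), of which 11 on the lower side are shown. Some items are not reported here. *Pid1* beside *Ghr*, *Jund*, *Smad7* and the genes given against cumulus-like and mural GCs were singled out after their values were seen. Cumulus-like GCs had fewer than 4 positive genes and *Inhba* under the limit, and both comparison classes had fewer than 2 cycling genes. Immune barcodes showed 2 of *Ptprc*, *Laptm5*, *Tyrobp* and *Cd52* and were no GCs.

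On simulated counts for 11879 genes, 200 genes drawn from those at a mean of 20 CPM or more were changed 4-fold. The test of the conditions found 196 of them and made 42 false calls. These false calls are more than the limit on the adjusted p is meant to allow. In the data, *Grasp*, at a log2 fold change of 2.02, had an adjusted p of 0.999 by edgeR. *Akr1c18*, at -3.78, had the same adjusted p. The simulated rate therefore cannot be carried over to the data, and a short list of calls does not show that little changed. Same-numbered libraries did not deviate together (correlation of deviations from the condition means -0.45). Coordinates are from GENCODE M21 and promoters from RefSeq, both on GRCm38. Precision follows depth, from 2083731 to 7246931 UMIs in the cells of a library.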

Additional observations from a re-analysis of the deposited data

How the results depend on the processing

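*Plb1* passed in all 14 alternatives for which it was computed (fitted log2 fold change 10.6 to 13.2, dependent on the prior count), which were added after seeing the data, and *Fosl2* passed in none (-0.29 to -0.00054). The number of genes called between conditions was 1 in 12 alternatives, 16 of 12162 with DESeq2 and 225 of 20935 without the filter on low counts. It also moved when Fosl2cKO 1 was left out. The log2 ratio of the share of Amh Cited1 cells was -0.16 over all barcodes, -0.00031 after thinning and -0.82 to 0.91 without single libraries, with reversals without Fosl2F/F 2 (-0.038) and Fosl2cKO 2 (-0.82), and it passed in none. In the comparison of the condition effect with other GCs, 140 genes were called with 5 of 8 positive genes required, 218 without the filter on low counts and 0 to 1051 without single libraries (155 without Fosl2F/F 1, 1051 without Fosl2F/F 2, 0 without either Fosl2cKO library), where the lone library of a condition is assumed to vary like the others. The cause was not tested. With the replicate number as a block, 1 gene was called between conditions, as without it, and the share had a log2 ratio of 0.099. In the comparison with other GCs, terms for replicate number and condition took the place of the library terms. That fit, which no longer paired the classes within a library, called 0 genes. Libraries with the same number correlated at -0.45 in their deviations. With 2 libraries per condition, the value for crossed pairs, 0.45, is the same number with its sign turned. A block of the crossed pairs, added after seeing the data, called 1 gene. Without the cells that showed markers of other cell types, 1 gene was called between the conditions. The Amh Cited1 cells held 2083731 UMIs in Fosl2cKO 1 and 2659111 in Fosl2F/F 2, against 5877497 and 7246931 in the other two libraries.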

Other observations

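Cells without *Ghr* were also richer in *Kctd14*, a gene of immature GCs, at 370.3, 259, 415 and 217 CPM in library order against 155, 176, 215 and 168 in cells with *Ghr*. *Inhbb* ran the same way, at 48.1, 184, 511 and 444 against 31.1, 95.0, 153 and 122. *Itih5* ran the other way, at 53.8, 21.8, 11.6 and 29.4 against 314, 67.3, 146 and 131. These splits used *Ghr* detection in the same barcodes and carry no test. In Fosl2F/F 2 *Ghr* was at or under the immune background, so the values there do not describe *Ghr* expression. Cells with a *Ghr* UMI in that library were deeper (median 9310 against 5304.5 UMIs) and held more *Cyp11a1* (3220 against 623 CPM). Much of the *Cyp11a1* lay in 6 of the 339 cells, so that this contrast may reflect few barcodes. *Igfbp5*, an IGF-binding protein gene, stood at 74.2, 245, 372 and 125 CPM in the Amh Cited1 cells, and at 364 to 685 in cumulus-like GCs.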
